A study of Rattus norvegicus with 6 samples.

Results

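Map2, Dlg4, Ppp2r2b, Gdnf and Lhcgr are best known from neurons and gonads, and their RNA was followed here in rat thoracic aorta. They were chosen by name, as the genes with those roles among the 30 whose array probe was matched to a gene symbol. Only probes with names starting with A_4 were matched. The rule used no measured value, although earlier results of these data were known when it was written. Each has 1 probe with 10 spots per array. The array holds 38804 different probes in all, for messenger and long noncoding RNAs.

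The rats were spontaneously hypertensive rats (SHR), an inbred strain in which blood pressure rises without treatment. The control group was 3 rats that received saline, although another label field calls them untreated. The peptide group was 3 rats given an oligopeptide of the mushroom Ganoderma lingzhi by intravenous injection, at a daily dose of 5.0 mg/kg. Treatment lasted 28 days from an age of 12 weeks, and the aortas were taken at 16 weeks. No strain with normal blood pressure was among the samples, so every value is from hypertensive animals. The sex is male in one label field and female in another, and it was not checked here. Each rat is taken as a separate animal on 1 one-colour array.

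Map2 binds and stabilises microtubules, mostly in dendrites of neurons. Dlg4 encodes a scaffold protein that anchors glutamate receptors at excitatory synapses. Ppp2r2b is a regulatory subunit of protein phosphatase 2A that is abundant in brain, and it directs the enzyme to its substrates. Gdnf is a secreted growth factor that acts through a GFRA co-receptor and the RET tyrosine kinase, and it keeps several types of neuron alive. Lhcgr is the receptor for luteinizing hormone and chorionic gonadotropin, and in Leydig and theca cells it drives steroid hormone synthesis. The aortic adventitia carries sympathetic nerve fibres, but the neuronal cell bodies, which hold most of the RNA, lie in ganglia outside the vessel. In whole tissue, fewer cells of a type and less RNA per cell cannot be told apart.

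The 6 arrays came from 2 scans, each taken as 1 slide. Slide 1 held the 3 controls and peptide 1, and slide 2 held peptide 2 and 3. The number of arrays limits the precision. The slides also differed in the spread of their signals. The median processed signal over all probes was 70.7, 77.0 and 85.8 on the control arrays, 81.6 for peptide 1 and 87.1 and 86.8 for peptide 2 and 3. The 75th percentile was 251, 224 and 233 on the control arrays, 240 for peptide 1, and 336 and 328 for peptide 2 and 3. Dividing by that percentile therefore lowers every probe on slide 2 more than dividing by the median does. The factor is the same for all probes of an array, so this bears on all 5 genes. None of these 5 probes was dropped from any array.

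The probes of all 5 genes gave signal in every rat. Whether a probe also binds other transcripts was not tested. The processed signal is the spot brightness after the scanner software has subtracted the background. Of the 300 spots of these genes, 300 were well above background by the scanner's call. On each array 95.4% to 98.0% of all probes were as well, so that call does not set the 5 genes apart. All 300 were also brighter than the brightest of the 153 negative-control spots on their own array. The share of all probes above that spot was not counted. The dimmest of the 300 spots read 14.7, and the brightest negative-control spot of any array read 10.7. The mean signal per array was between 9.82 and 50.4 times the median negative control. On this ratio all 5 genes had a higher mean in the peptide group, the reverse of the scaled values given further on. The means were 23.8 ± 1.75 and 32.0 ± 6.36 for Map2, 36.6 ± 8.06 and 44.6 ± 5.25 for Dlg4, and 15.6 ± 5.44 and 25.7 ± 6.30 for Ppp2r2b (control, then peptide; SD, n = 3). They were 24.0 ± 3.81 and 27.2 ± 5.42 for Gdnf and 13.1 ± 2.88 and 13.99 ± 1.09 for Lhcgr, and these differences were not tested. The median negative control was itself lower on slide 2, at 1.35 and 1.46, than on slide 1, at 1.84 to 2.31. It divides every probe of an array alike. The median signal of all probes was 87.1 and 86.8 on slide 2, against 70.7 to 85.8 on slide 1. The share of all probes with a higher ratio in the peptide group was not counted, so the shared direction is not read as a trait of these 5. Signal on an array does not rank different genes by abundance, because probes differ in how well they bind, and the place of each probe within its transcript was not determined here.

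**Figure D1:**
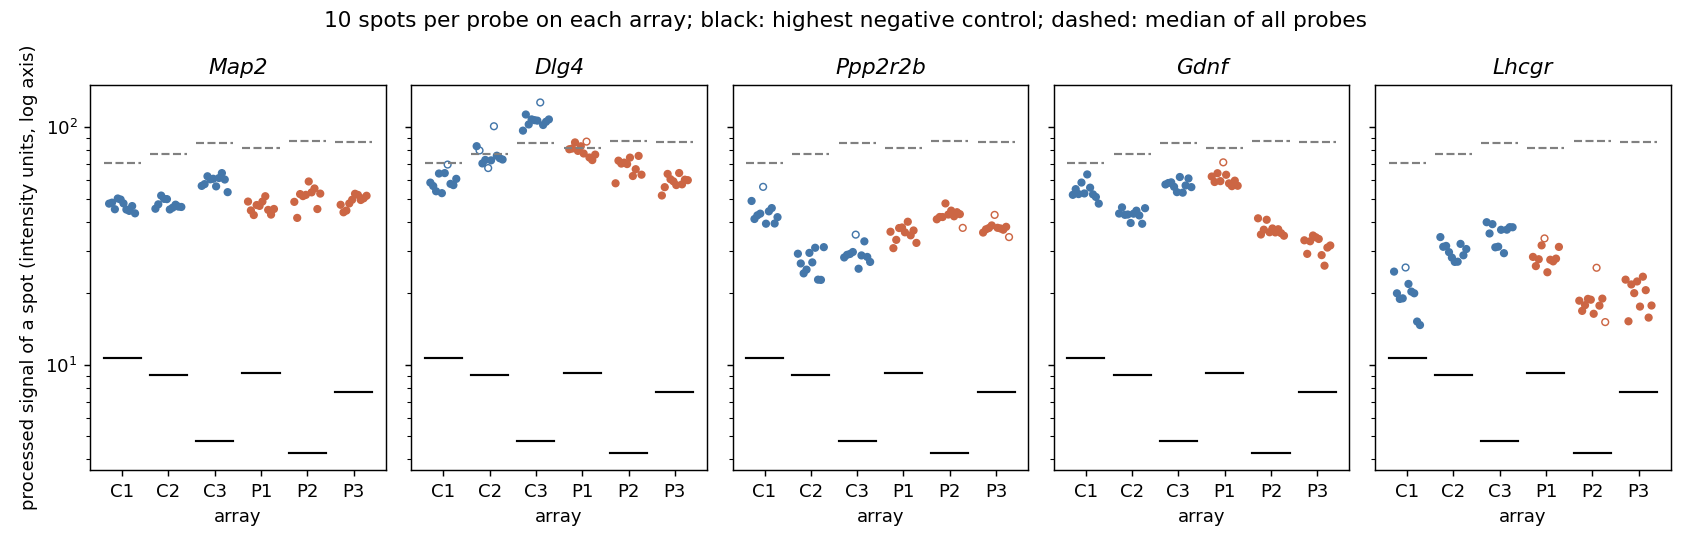
Processed signal (intensity units, log axis) of each of the 10 spots per gene on the arrays of control rats (C1 to C3, blue) and peptide rats (P1 to P3, orange). Open points are spots marked as outliers and left out, black lines the brightest negative-control spot and dashed lines the median of all probes. All 300 spots lie above the black lines, and Gdnf spots are lower on P2 and P3 than on P1.

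Against all probes of the same array, the genes stayed mostly in the dimmer part. Map2 lay at the percentile 34.1 ± 2.35 (mean and SD over 6 arrays), with a range of 30.7 to 36.9. It was the steadiest of the genes in this measure. Dlg4 lay at 46.7 ± 6.27 and reached 56.7 on control 3, the only array on which any of the 5 was above the median probe. Gdnf lay at 32.1 ± 8.03, Ppp2r2b at 24.1 ± 7.21 and Lhcgr at 15.3 ± 4.36 (SD, n = 6 each). Lhcgr was dim on every array, with a lowest percentile of 10.3 on peptide 2. Percentiles do not depend on how the arrays are scaled to each other.

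**Figure D2:**
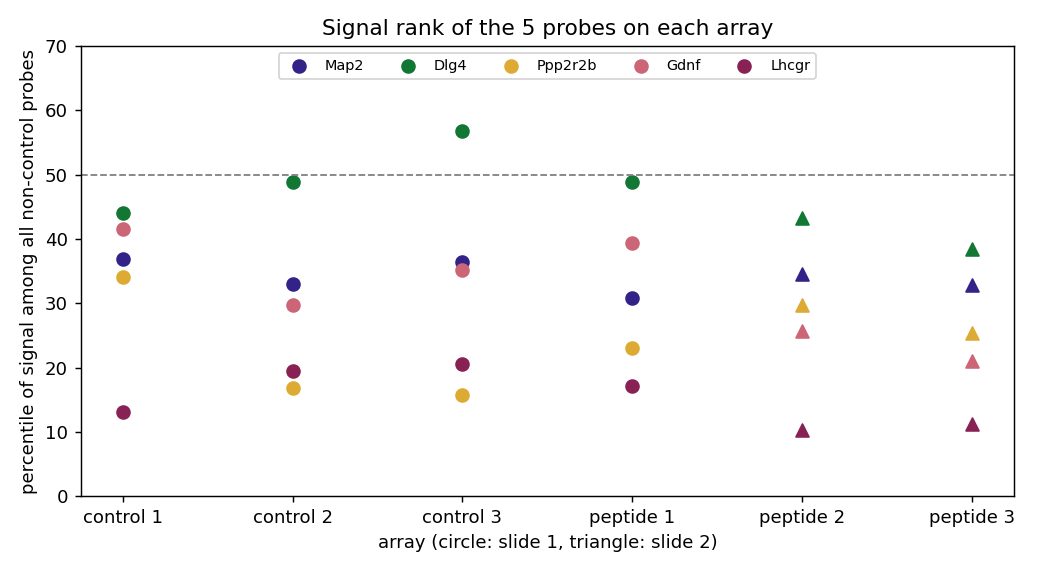
Percentile of each gene's signal among all non-control probes of an array, with the 6 arrays on the x axis, circles for slide 1 and triangles for slide 2. Dlg4 on control 3 (56.7) is the only point above the dashed median line, and Map2 stays between 30.7 and 36.9.

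The design asks which RNAs differ between treated and control aortas. None of the 5 genes passed the test. In what follows a normalised value is the log2 processed signal minus the array's 75th percentile, and the test is limma with Benjamini-Hochberg adjustment over 37721 probes. The adjusted p was 0.757 for Map2, Dlg4, Gdnf and Lhcgr and 0.938 for Ppp2r2b, and of all tested probes 0 passed (0%). An unadjusted limma p under 0.05 was found for 0 of the 5 genes and for 1067 of all tested probes (2.83%). In other fits that unadjusted level was reached by Gdnf, Lhcgr and Dlg4 without peptide 1, by Lhcgr without control 1, and by Dlg4 and Lhcgr after normexp background correction with the 75th percentile. The limma adjusted p in these 6 cases was 0.161, 0.164, 0.204, 0.429, 0.249 and 0.249, in that order. The share of all tested probes at the unadjusted level in these fits is not given here, so these cases do not set the genes apart. The median difference of all tested probes was -0.33 without peptide 1, -0.22 without control 1 and -0.49 in that normexp fit. All 5 genes had a lower mean in the peptide group, where 72.2% of all tested probes did. Their median difference was -0.51, beside -0.21 for all tested probes. The 25 other probes with a gene name had 18 lower and 7 higher, with a median of -0.27. In 0 of the 5 genes did all peptide arrays lie below all controls, where 4.19% of tested probes did so. The shared direction is therefore read against a general shift to lower values in the same scaling.

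**Figure D3:**
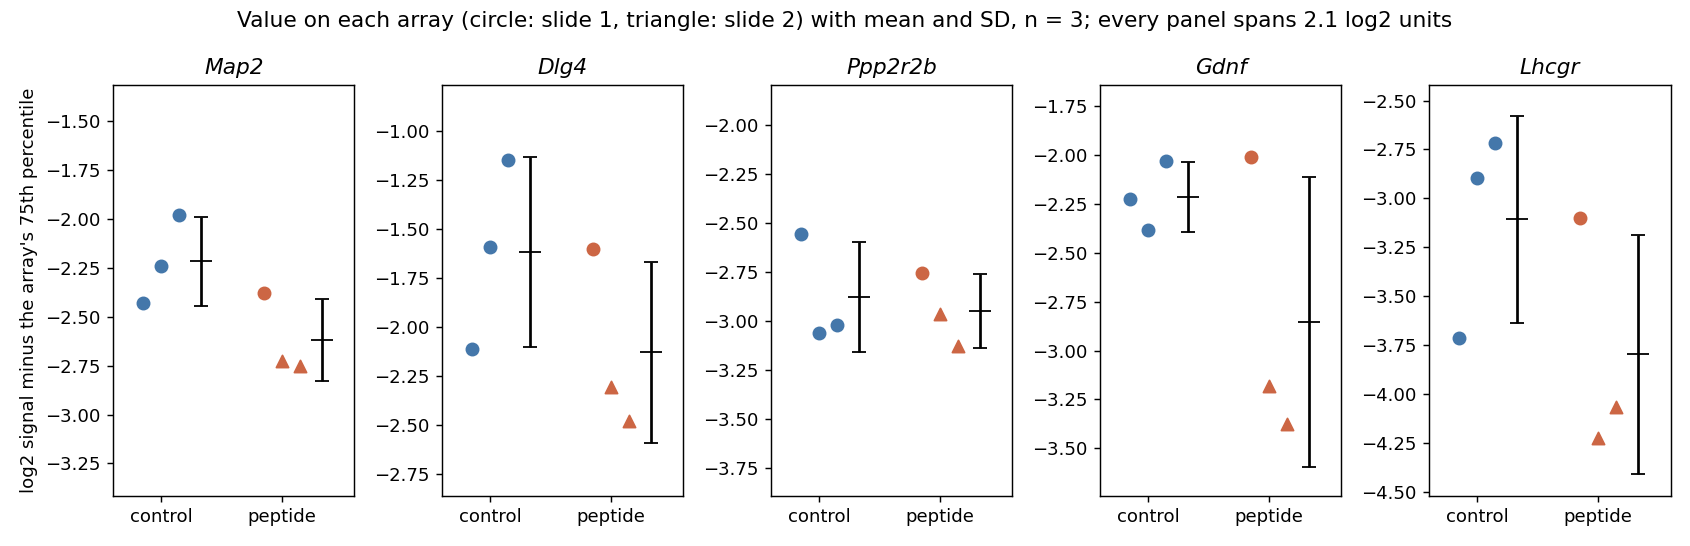
Normalised log2 value (signal minus the array's 75th percentile) on each array, by group, with circles for slide 1, triangles for slide 2 and black bars for the mean and SD (n = 3). The groups overlap in every panel, and peptide 2 and 3 lie below peptide 1 in all 5, which after median scaling holds for Dlg4, Gdnf and Lhcgr only.

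Map2 (probe A_44_P111897, RefSeq NM_013066; chromosome 9, 75173038 to 75431606 in GRCr8) had a similar raw brightness on 5 arrays and was brighter on control 3. Its processed signal was 46.7, 47.3 and 59.1 on control arrays 1, 2 and 3 and 46.1, 50.8 and 48.7 on peptide arrays 1, 2 and 3. Control 3 was the brightest, and the other arrays lay between 46.1 and 50.8. After scaling, its normalised values were -2.43, -2.24 and -1.98 for control 1 to 3 and -2.38, -2.73 and -2.75 for peptide 1 to 3, so peptide 1 overlapped the controls and the other two did not. The difference was -0.40 (SE 0.28, 95% interval -1.03 to 0.22). On scaling by the median, the control values were -0.60, -0.70 and -0.54 and the peptide values -0.82, -0.78 and -0.84. All peptide arrays lay below all controls here, as in 5.09% of tested probes on that scale. The difference was then smaller, at -0.20, with a limma adjusted p of 0.788. Without any scaling it was -0.07.

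Dlg4 (A_44_P238314, NM_019621; chromosome 10, 55239397 to 55267780) ran over a wide range among the controls. The processed signal was 58.1, 74.3 and 105 in the 3 controls and 78.9, 68.0 and 58.7 in the 3 treated rats, and these ranges overlap widely. Its normalised log2 values ran from -2.11 to -1.15 among the controls alone. The group means were -1.62 ± 0.48 and -2.13 ± 0.46 (SD, n = 3 each), a difference of -0.51 (SE 0.35, 95% interval -1.29 to 0.27). That difference is about the size of the SD within either group. It was -0.28 without control 3, the brightest control, -0.34 without peptide 3 and -0.78 without peptide 1.

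Ppp2r2b (A_44_P242397, NM_022209; chromosome 18, 34904686 to 35357299) showed no settled direction. The processed signal was 42.7 in control 1 against 26.8 and 28.7 in control 2 and 3, and 35.5, 43.1 and 37.4 in the treated rats. In this unscaled signal control 1 stood apart from the other controls, within the range of the treated rats. On the normalised scale control 1 (-2.56) lay above all treated rats, which ran from -3.13 to -2.75. Control 2 (-3.06) and control 3 (-3.02) were then within that range. The normalised means were -2.88 ± 0.28 for control and -2.95 ± 0.19 for peptide rats (SD, n = 3 each), a difference of -0.07 (SE 0.29, 95% interval -0.70 to 0.56). The sign depended on the scaling: the difference was 0.13 after median scaling, 0.24 after quantile normalization and 0.22 in the deposited table. Without control 1 it was 0.09. Ppp2r2b was also the one gene of the 5 whose difference lay above the median of all tested probes, by 0.14.

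Gdnf (A_44_P500961, NM_019139; chromosome 2, 58621327 to 58647242) separated the treated rats from each other. The processed signal was 53.7, 42.8 and 57.0 in the controls, 59.6 in peptide 1, and 37.1 and 31.6 in peptide 2 and 3. In this unscaled signal peptide 1 was the brightest of the 6 arrays and peptide 3 the dimmest. The spots of peptide 1 did not overlap those of peptide 2 and 3. The dimmest of the 10 on peptide 1 read 56.4, and the brightest on peptide 2 and 3 read 41.3 and 35.0. By percentile among all probes control 1 (41.5) was above peptide 1 (39.4), and peptide 3 (21.0) was still lowest. The normalised means were -2.21 ± 0.18 for control and -2.85 ± 0.74 for peptide rats (SD, n = 3 each), a difference of -0.64 (SE 0.37, 95% interval -1.47 to 0.19). A lower difference was found in 8.19% of tested probes. On the same scale peptide 1 was at -2.01, peptide 2 at -3.18 and peptide 3 at -3.38, and the controls ran from -2.39 to -2.03. The difference was -1.07 without peptide 1 (limma adjusted p = 0.161), where each group lies on its own slide, and -0.38 without peptide 3.

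Lhcgr (A_44_P466130, NM_012978; chromosome 6, 11415361 to 11480834) had the lowest difference of the 5 on the 75th-percentile scale, though not in every alternative. Its processed signal was 19.2, 30.1 and 35.4 in the 3 controls and 28.0, 18.0 and 19.5 in the 3 treated rats. In this unscaled signal control 1 was as dim as peptide 2 and 3, so the groups overlapped. On the normalised scale control 1 (-3.71) lay above peptide 2 (-4.23) and peptide 3 (-4.07). There the overlap came from peptide 1 (-3.10). The normalised means were -3.11 ± 0.53 and -3.80 ± 0.61 (SD, n = 3 each), a difference of -0.69 (SE 0.39, 95% interval -1.55 to 0.17). A lower difference was found in 5.94% of tested probes. It was -0.99 without control 1 and -1.04 without peptide 1. Relative to the median negative control, its signal was 9.82 to 15.3 times as bright in the controls and 13.3 to 15.2 times in the treated rats.

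Of the promoter windows of these genes, only those of Gdnf and Lhcgr reach before the gene's annotated start, so theirs are shown. Gdnf and Lhcgr are also the pair with the lowest differences on the 75th-percentile scale. The order is not fixed: in the deposited table Dlg4 (-0.33) is below Gdnf (-0.32), after normexp with quantile normalization Dlg4 is lowest (-0.14), and with the slide as a fixed block Gdnf is highest (0.20). The sequences are RefSeq's for the plus strand of GRCr8, and only bases before the annotated start of the gene are given. The windows for Map2, Dlg4 and Ppp2r2b lie inside those genes and are not shown. Capitals mark the TATA box TATAAA, the GC box GGGCGG and the cyclic AMP response element core TGACGT, searched on both strands.
Gdnf, chr2:58621077-58621326: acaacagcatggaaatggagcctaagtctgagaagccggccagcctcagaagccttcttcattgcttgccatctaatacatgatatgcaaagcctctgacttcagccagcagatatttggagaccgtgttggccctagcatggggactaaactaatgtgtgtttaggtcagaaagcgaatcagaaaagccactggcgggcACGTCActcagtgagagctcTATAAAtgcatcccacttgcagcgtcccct
Lhcgr, chr6:11415165-11415360: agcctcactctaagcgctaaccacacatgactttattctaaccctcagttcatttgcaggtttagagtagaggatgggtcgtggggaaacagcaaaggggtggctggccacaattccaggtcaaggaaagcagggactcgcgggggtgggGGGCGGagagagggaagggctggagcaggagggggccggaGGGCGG

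The windows differ in length and place, so they do not show whether the promoters share a motif. The Lhcgr window ends at the annotated gene start, before the transcript start used for distances, and the stretch where both Gdnf motifs lie was not searched in Lhcgr. The Gdnf window of 250 bases holds 1 TATA box, from 30 to 25 bases before the transcript start, and 1 response element core on the minus strand, from 50 to 45 bases before it. Of 33469 RefSeq rat promoter windows of that length, 12.9% hold that TATA box and 6.9% that core. The Lhcgr window of 196 bases holds 2 GC boxes, which begin 100 and 60 bases before the transcript start, and 23.5% of windows of that length hold at least 1. Motifs did not overlap each other. The share of G and C was 49.6% for Gdnf and 59.2% for Lhcgr, against medians of 51.2% and 50.5% over all windows of those lengths. A match describes letters only, and no binding was measured.

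Among treated rats, the lower values of Gdnf, Lhcgr and Dlg4 were those of the 2 on slide 2. Against the control mean, peptide 2 and 3 together were at -1.07, -1.04 and -0.78 for these genes, and peptide 1 at 0.20, 0.01 and 0.01. The median of all tested probes was -0.33 for peptide 2 and 3 and 0.01 for peptide 1. After median scaling, which brings those probe medians to -0.0048 and -0.03, peptide 2 and 3 were still at -0.74 for Gdnf, -0.71 for Lhcgr and -0.45 for Dlg4. Map2 was then at -0.19 in peptide 2 and 3 and -0.21 in peptide 1, both measured from the controls of slide 1, since slide 2 held no control. On the 75th-percentile scale these Map2 values were -0.52 and -0.16. With the slide as a fixed block, which leaves peptide 1 against the 3 controls of its slide, 1 of the 5 genes was lower and 4 were higher, where 47.7% of tested probes were lower. Their median was 0.01, and the limma adjusted p was 1 for each. Whether peptide 2 and 3 differ from peptide 1 through the rats or the slide cannot be told apart.

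**Figure D4:**
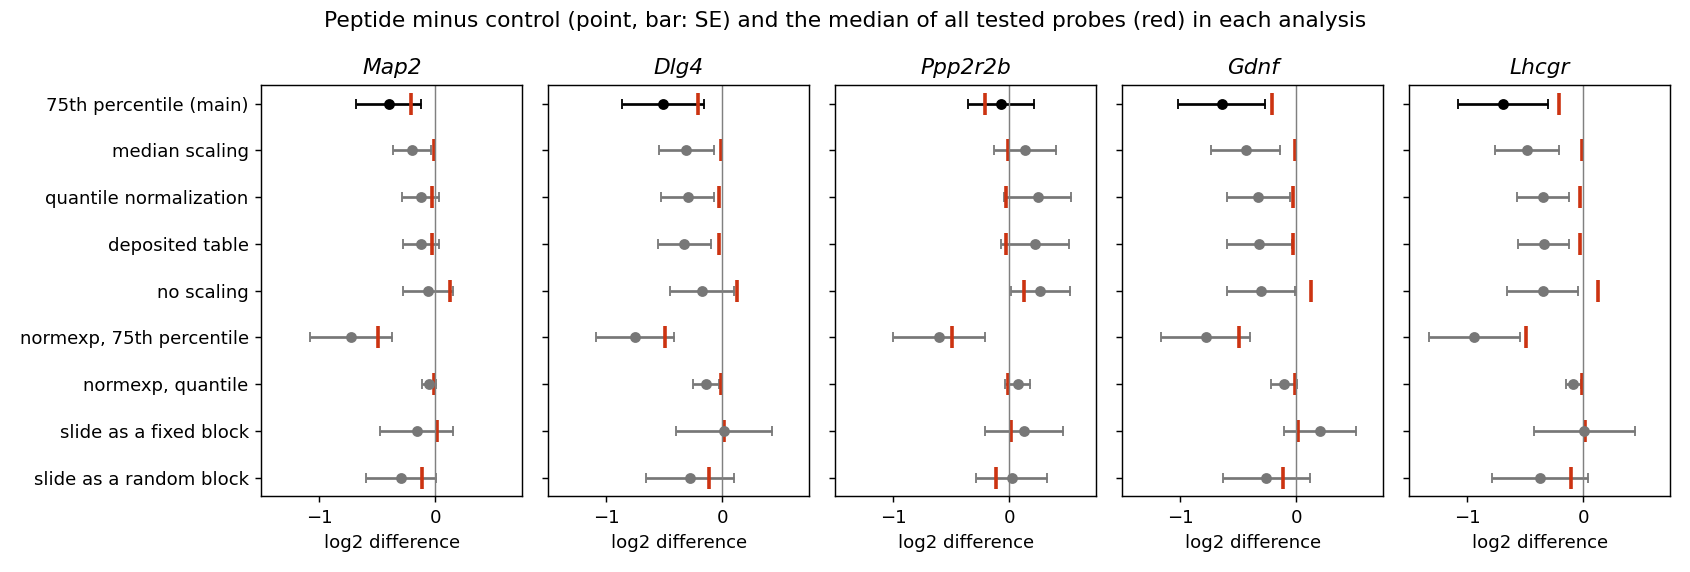
Peptide minus control log2 difference (point) with its SE (bar) for each gene under 9 analyses, and the median of all tested probes under the same analysis (red mark). Map2, Dlg4, Gdnf and Lhcgr lie left of 0 under every scaling shown, while with the slide as a fixed block Gdnf (0.20), Dlg4 (0.01) and Lhcgr (0.01) do not.

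The size of the differences moved with the scaling. After median scaling, 4 of the 5 genes were lower, where 51.2% of tested probes were, and their median was -0.31 beside -0.01 for all tested probes. Over the scalings and background corrections, including the authors' own table and no scaling at all, the difference ran from -0.94 to -0.09 for Lhcgr and from -0.78 to -0.11 for Gdnf. For Dlg4 it ran from -0.75 to -0.14, for Map2 from -0.73 to -0.06 and for Ppp2r2b from -0.61 to 0.27. In the authors' deposited table the differences were -0.34, -0.32, -0.33, -0.12 and 0.22 in that order of genes. None passed the limma threshold in any of these.

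The repeated spots give the spread within an array. Within an array, the SD over the spots of a probe was between 0.03 and 0.23 on the log2 scale, with a median over arrays of 0.08 for Map2, Dlg4 and Gdnf, 0.10 for Ppp2r2b and 0.13 for Lhcgr. The pooled SD between arrays of a group, which includes the slide in the peptide group, was 0.22 for Map2, 0.24 for Ppp2r2b, 0.47 for Dlg4, 0.54 for Gdnf and 0.57 for Lhcgr. That is 2.67 times the spot SD for Map2, 2.33 for Ppp2r2b, 5.60 for Dlg4, 6.79 for Gdnf and 4.24 for Lhcgr. These are unlike measures, since the value of an array is a mean over up to 10 spots. Against the spot SD divided by the square root of 10, the ratios were 8.44, 7.36, 17.7, 21.5 and 13.4 in that order. Among the controls, all on slide 1, the SD was 0.23 for Map2, 0.28 for Ppp2r2b, 0.48 for Dlg4, 0.18 for Gdnf and 0.53 for Lhcgr. The Gdnf spread is thus mostly that of the peptide group, with an SD of 0.74 over both slides. Spots of an array are repeats of 1 sample and do not measure variation between extractions or labellings. Of the 300 spots, 16 were marked as outliers and left out.

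**Figure D5:**
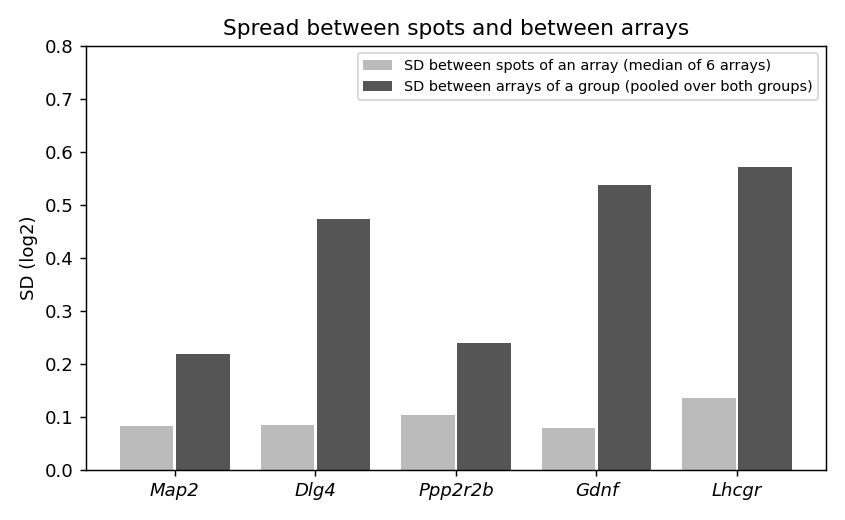
SD on the log2 scale between spots of an array (light bars, median of 6 arrays) and between arrays of a group (dark bars, pooled over both groups, so slides are included) for each gene. The between-array SD exceeds the spot SD for all 5, by 2.33 times for Ppp2r2b up to 6.79 times for Gdnf.

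Some other genes followed the same course over the 6 arrays. Likeness was measured as the root mean square difference between normalised values after each gene's own mean was removed, among 24 other gene-named mRNA probes. Nearest to Map2 were the inflammasome sensor Nlrp3 (0.07) and the Mediator subunit Med16 (0.25), beside a spread of Map2 about its own mean of 0.27. Nearest to Dlg4 were the ATP-gated channel P2rx2 (0.14) and Nlrp3 (0.25), beside 0.46. Nearest to Gdnf were Napepld, an enzyme that makes N-acylethanolamines (0.10), and P2rx2 (0.27), beside 0.54. Nearest to Lhcgr were P2rx2 (0.15) and Napepld (0.27), beside 0.58. For Ppp2r2b the nearest were the translation factor Eif4b (0.24) and the pyruvate dehydrogenase kinase Pdk3 (0.24), which is more than its own spread of 0.20, so no gene followed it closely. Among the 5 themselves, Dlg4 and Lhcgr were the nearest pair (0.18) and Ppp2r2b and Lhcgr the farthest (0.62). All these genes share the arrays, the slides and the scaling, so likeness here is a description of 6 arrays.

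The partners of these genes were not followed. None of the 98 genes on 13 lists had a probe with a gene name. Gene names were sought only for probes whose own name starts with A_4, so the other probes were not searched for these genes. The lists covered synaptic scaffold and microtubule genes, PP2A subunits, the GDNF family with its receptors, and gonadotropin receptor and steroid synthesis genes. They also held markers of neurons, sympathetic neurons, Schwann cells, gonadal steroid cells, smooth muscle, endothelium, fibroblasts, adipocytes and leukocytes. The labelled tissue was therefore not checked against its defining markers, and which cells of the samples held these RNAs was not tested.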

How the data were processed

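Per the file headers, the deposited scanner output of each array is spot intensity from Agilent Feature Extraction 11.0.1.1 with background subtracted. A deposited log2 table of the authors' values has equal quartiles in all columns, and each column correlates best with its own array (lowest r 0.997, across probes). How the authors combined spots into probes there is not stated in the sources.

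Spots of controls and those with an outlier mark were dropped. For each probe the remaining log2 processed signals were averaged, and each array's 75th percentile was subtracted. Probes well above background on at least 3 arrays were tested (37721; 1083 were not) with limma 3.58.1 in R 4.3.3, two-sided, with a threshold of 0.05 on the Benjamini-Hochberg adjusted p. Probes were named by RefSeq accession through the gene table of GRCr8, which also gives the coordinates; the array's own build was not used. The fit was tested on simulated arrays. Normexp used an offset of 50 on the median spot and background signals. Slides were told apart by the scan identifier in the file headers.

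All 5 genes are named whatever their values, and the 2 nearest genes of each by the likeness measure. The genes, lists and tests were chosen with earlier results of these data known. The alternative without scaling was added after seeing the data. Python 3.11.15 with matplotlib 3.10.9 drew the figures.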

Additional observations from a re-analysis of the deposited data

How the results depend on the processing

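None of the 5 genes passed the adjusted limma threshold under any of 21 alternatives, with adjusted p from 0.161 to 1. Map2 kept its sign in 21 of 21, Dlg4, Gdnf and Lhcgr in 19, and Ppp2r2b in 11. These counts include fits that cannot change the difference, so their agreement was fixed in advance. They are the fits with another filter on dim probes, with the replicate block, or with trend and robust variance. With the slide as a fixed block, and equally in slide 1 alone, Dlg4 (0.013), Gdnf (0.20), Lhcgr (0.0089) and Ppp2r2b (0.13) turned. Ppp2r2b also turned after quantile normalization (0.24), median scaling (0.13), normexp with quantile normalization (0.070), in the deposited table (0.22), with a random slide block (0.018) and without scaling (0.27). The cause was not tested. Leaving out 1 array gave -0.52 to -0.28 for Map2, -0.78 to -0.28 for Dlg4, -1.07 to -0.38 for Gdnf, -1.04 to -0.48 for Lhcgr and -0.17 to 0.091 for Ppp2r2b. The count of all probes past the threshold was 0 to 4 on leaving out 1 array, with 4 without control 2, 0 under the other fits, and 1067 at an unadjusted p under 0.05. The mean percentiles moved by less than 1 SD in 45 of 45 alternatives. Most of these leave out 1 array, which cannot move a mean over 6 arrays by 1 SD. Their agreement was therefore fixed in advance too.

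Across probes, deviations from the group mean correlated at -0.013, -0.19 and -0.24 between arrays that share a replicate number. Of the 3 controls, 0 correlated best with its own number. The deviations of the peptide arrays include the slide, so these values cannot show whether the rats were paired. With the number as a replicate block, 0 probes passed. The differences of the 5 genes cannot change in that fit, since each number has 1 array per group (Gdnf -0.64, limma adjusted p = 0.888). Lhcgr was closest to background, with spots down to 14.7 beside negative controls of up to 10.7.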
